A study of Mus musculus with 8 samples.

Results

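The 42 genes described here drive or mark the cell cycle, and they were taken by name from a list of symbols. All 42 are rows of the deposited gene table, which holds 35976 genes. They comprise 12 genes of G1 and entry into S phase, 11 genes of S phase and 19 genes of G2 and mitosis. RNA was sequenced from mouse liver, with 5 CTRL libraries and 3 OPA1_LKO libraries, the latter from livers in which Opa1 was knocked out in hepatocytes. Opa1 encodes the GTPase that fuses the inner mitochondrial membrane. Both groups received a high fat diet. The promoter that drove the deletion, the exons removed, and the strain, sex and age of the mice, were not stated in the labels. Nor is it stated that each library came from its own animal. The p-values therefore weigh group differences against the spread between these libraries, and some of that spread may be technical.

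Cells leave rest when D-type cyclins bind Cdk4 or Cdk6 and release E2F factors, which switch on the genes of DNA replication. Cyclin E and cyclin A with Cdk2 carry the cell through S phase, and cyclin B with Cdk1 carries it into mitosis, while p21 (Cdkn1a), p27 (Cdkn1b) and p18 (Cdkn2c) hold the kinases back. Most hepatocytes of an adult liver are at rest and can re-enter the cycle after injury or loss of tissue, and many of them are polyploid.

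Many promoters of G2 and mitosis genes carry a cell cycle homology region (CHR), with the letters TTTGAA, near a CCAAT box. The RefSeq promoter table (GRCm38.p6, 250 bases before to 50 bases after a start site) matched 34 of the 42 members with 39 windows. Ccnd1, Ccnd2, Ccne2, Ccna2, Mcm4, Aurkb, Foxm1 and Tpx2 are not among the 34. Windows were searched on both strands. The CHR letters were found in 12 of 16 windows of G2 and mitosis members (75.0%), in 1 of 11 windows of S phase members (9.1%) and in 0 of 12 windows of G1 members, against 17.9% of all 32851 windows of this length. One of the 16 is a second, overlapping window of Prc1. CCAAT was found in 15 of 16, 9 of 11 and 4 of 12 windows of G2 and mitosis, S phase and G1 members, against 37.4% of all windows. The E2F letters (TTTCCCGC, TTTCGCGC, TTTGCCGC or TTTGGCGC) were found in 1 of 16, 4 of 11 and 1 of 12 of them, against 2.3% of all windows. A match describes the letters only and does not show that a factor bound there. The windows of Bub1b, Ccnb2, Kif11, Mki67 and Top2a also hold the CHR letters and are not printed. The following 30-base stretches, each read along the gene's own strand, hold the CHR letters of some other G2 and mitosis genes described below. Capitals mark the letters, TTCAAA where they lie on the opposite strand. Aurka is shown as the member whose fold change had the opposite sign.
Plk1, chr7:122159453-122159482, plus strand: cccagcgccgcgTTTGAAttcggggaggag
Cdk1, chr10:69352910-69352939, minus strand: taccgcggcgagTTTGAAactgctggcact
Cdc20, chr4:118437344-118437373, minus strand: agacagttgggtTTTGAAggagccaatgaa
Prc1, chr7:80294434-80294463, plus strand: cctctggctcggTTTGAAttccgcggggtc
Ube2c, chr2:164769888-164769917, plus strand: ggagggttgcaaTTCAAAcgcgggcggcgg
Aurka, chr2:172370521-172370550, minus strand: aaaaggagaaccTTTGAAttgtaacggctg

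The summed gene counts of a library ranged from 16076404 to 20471271. Levels are given as CPM, counts scaled by the TMM-adjusted library size, or, where genes are compared, as TPM, a scaled abundance that corrects for length. Opa1 was at 39.9, 51.9, 44.0, 57.6 and 46.9 CPM in the 5 CTRL libraries and at 24.7, 34.4 and 34.0 CPM in the 3 OPA1_LKO libraries. The groups did not overlap, with a log2 fold change of -0.63 ± 0.17 (SE) and an edgeR Benjamini-Hochberg adjusted p of 0.0539. CTRL replicate 1 stood apart from the other 7 libraries, with 134 CPM of Apoe against 20759 to 33179 CPM and 8.13 CPM of Xist against at most 0.185 CPM. Ddx3y, a gene of the Y chromosome, was at 7.91 CPM in that library and at 10.9 to 26.9 CPM in the other 7. CTRL replicate 3 had 22.3 CPM of the bile duct keratin Krt19 against 0.319 to 5.67 CPM elsewhere. Summed hepatocyte markers were at 92628 ± 20027 CPM (SD, n = 5) in CTRL and 91611 ± 9604 CPM (SD, n = 3) in OPA1_LKO. In bulk liver, more cells of a type and more RNA per cell cannot be told apart.

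In OPA1_LKO liver, cyclin D1 (Ccnd1), the CDK inhibitor p18 (Cdkn2c), the mitotic kinase Plk1 and Cdk1 rose by between 1.22 and 1.90 on the log2 scale. Of the 41 members that passed the filter on low counts, these 4 were called higher (9.76%) and 0 lower, at an adjusted p under 0.05 by edgeR. Over all 14036 genes tested, 3.34% were called higher and 2.69% lower. At an unadjusted edgeR p under 0.05, 18 members were higher and 0 lower, against 3337 of all 14036 genes in either direction. DESeq2 also called 0 members lower. The median log2 fold change was 0.57 over the 41 members and -0.03 over all genes tested. All OPA1_LKO libraries lay above all CTRL libraries for 13 of the 41 members (31.7%), against 8.0% of all genes tested. For 6 of the 41 members, all of G2 and mitosis, fewer than 3 CTRL libraries were over the count minimum, so these, Plk1 among them, passed through their counts in OPA1_LKO, and the counts and medians of tested members describe only what the filter let through. Among the other 35, 3 were called higher (8.57%) and the median was 0.48 on the log2 scale, while among all 13143 genes with that many CTRL libraries over the minimum, 2.68% were called higher. Without CTRL replicates 1 and 3, 13 members were called higher, in a fit chosen after seeing the data. That fit called 1491 of all 13681 genes tested higher. Leaving out 1 library gave 9 called members without CTRL replicate 1, 2 without CTRL replicate 2, 4 or 5 or OPA1_LKO replicate 3, and 1 without OPA1_LKO replicate 1. Over all genes tested, 924 were called higher without CTRL replicate 1 and 144 without OPA1_LKO replicate 1.

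**Figure D1:**
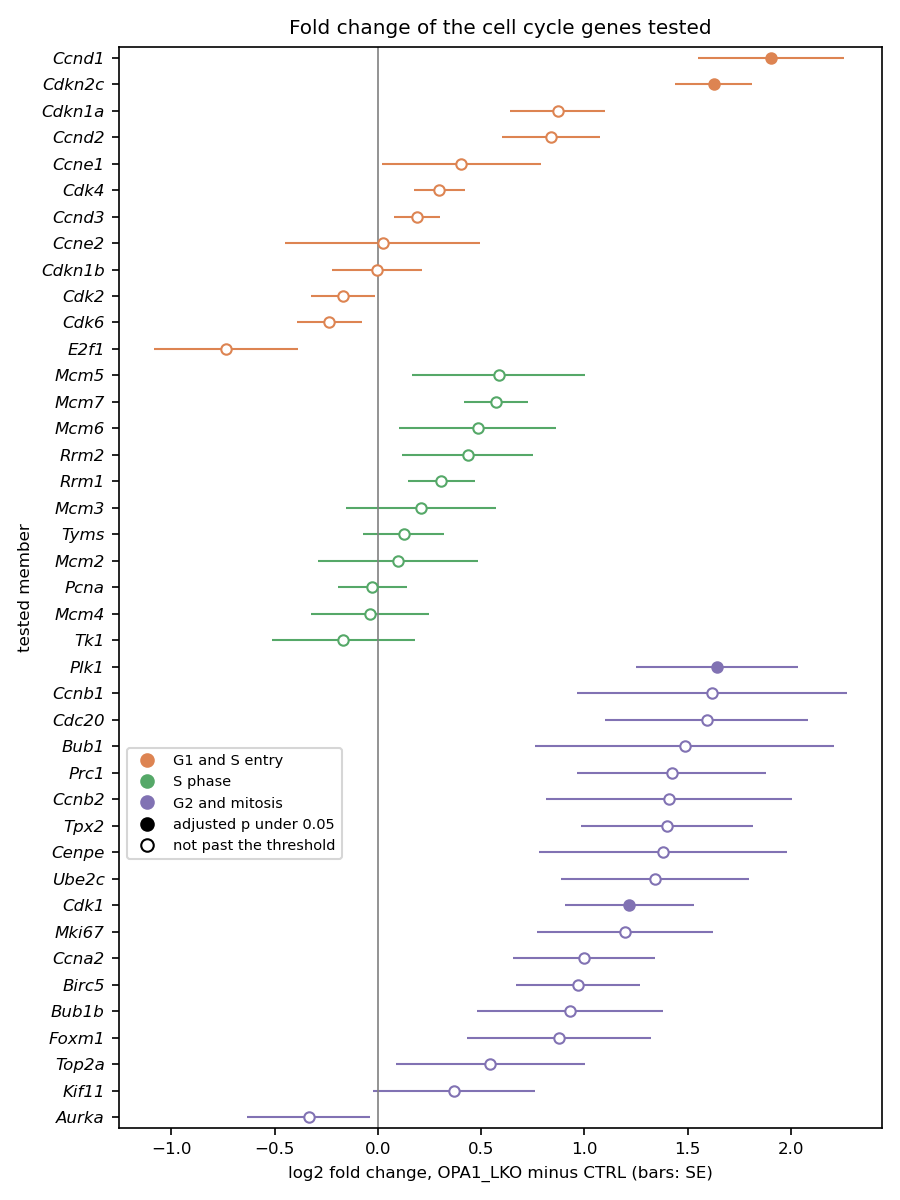
Log2 fold change (OPA1_LKO minus CTRL) of the 41 tested members, with bars for the SE, grouped by phase. Filled points are the 4 members with an adjusted p under 0.05. The G2 and mitosis members lie between -0.34 and 1.64, and 17 of 18 are above 0.

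The G1 members were uneven: 2 of 12 rose (16.7%), against 3.34% of all genes tested, and the median log2 fold change was 0.24. All OPA1_LKO libraries lay above all CTRL libraries for 5 of 12 (41.7%), against 8.0% of all genes tested. Ccnd1 (chr7:144929931-144939831), the cyclin through which growth signals reach Cdk4 and Cdk6, was at 15.9, 12.5, 9.23, 7.89 and 21.1 CPM in the CTRL libraries, and 79.1, 38.7 and 31.9 CPM were measured in OPA1_LKO. Every OPA1_LKO library was above the highest CTRL library, and OPA1_LKO replicate 1 was far above the other two. The means were 13.3 ± 5.36 CPM (SD, n = 5) and 49.9 ± 25.5 CPM (SD, n = 3), a log2 fold change of 1.90 ± 0.35 (SE, edgeR Benjamini-Hochberg adjusted p = 0.0153). Without OPA1_LKO replicate 1 the edgeR adjusted p was 0.0824.

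Ccnd2, a second D-type cyclin, was at 3.40, 3.99, 5.26, 2.95 and 5.16 CPM in the CTRL libraries, and 7.43, 8.95 and 5.86 CPM were measured in OPA1_LKO. The groups did not overlap, but the difference did not pass the threshold (log2 fold change 0.84 ± 0.24, SE, edgeR Benjamini-Hochberg adjusted p = 0.0673). Ccnd3, the third D-type cyclin, was at 41.0, 41.1, 38.2, 35.0 and 40.2 CPM in the CTRL libraries, and 46.3, 44.5 and 43.0 CPM were measured in OPA1_LKO. These groups did not overlap either, with a log2 fold change of 0.19 ± 0.11 (SE, edgeR adjusted p = 0.338). Per length, Ccnd3 was the most abundant D-type cyclin in both groups, at 25.4 ± 5.54 TPM (SD, n = 5) and 32.1 ± 1.94 TPM (SD, n = 3). Of the summed TPM of the D-type cyclins, Ccnd1 took 12.4% ± 4.01 (SD, n = 5) in CTRL and 30.7% ± 10.3 (SD, n = 3) in OPA1_LKO, with no overlap between the groups.

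Cdkn2c (chr4:109660876-109666756), which encodes p18, an inhibitor of Cdk4 and Cdk6, was at 5.26, 3.15, 3.41, 3.77 and 3.84 CPM in the CTRL libraries, and 11.5, 13.4 and 11.1 CPM were measured in OPA1_LKO. The lowest OPA1_LKO library was above the highest CTRL library by more than the range within either group. The log2 fold change was 1.63 ± 0.19 (SE, edgeR Benjamini-Hochberg adjusted p = 0.0019), and the call held in all 8 fits that left out 1 library, with adjusted p from 0.000485 to 0.0125. One of its annotated transcripts carried 91.2% of the TPM of Cdkn2c over the 8 libraries. That transcript was at 3.25 ± 1.73 TPM (SD, n = 5) in CTRL and 12.7 ± 1.98 TPM (SD, n = 3) in OPA1_LKO. The 250 bases before its start site are shown because this transcript carried most of the level of Cdkn2c, and they hold none of the CHR, CCAAT or E2F letters.
Cdkn2c, chr4:109665373-109665622, minus strand: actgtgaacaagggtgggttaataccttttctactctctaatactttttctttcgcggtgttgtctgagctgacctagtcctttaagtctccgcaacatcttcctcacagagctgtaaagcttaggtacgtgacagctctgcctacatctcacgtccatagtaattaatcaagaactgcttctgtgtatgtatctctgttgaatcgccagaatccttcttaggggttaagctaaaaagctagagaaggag

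Cdkn1a (chr17:29090979-29100722), which encodes the p53-induced inhibitor p21, was at 19.3, 15.4, 14.0, 10.8 and 11.6 CPM in the CTRL libraries, and 28.7, 17.7 and 31.7 CPM were measured in OPA1_LKO. OPA1_LKO replicate 2 lay below CTRL replicate 1, so the groups overlapped. Its log2 fold change was 0.87 ± 0.23 (SE, edgeR Benjamini-Hochberg adjusted p = 0.0529), just outside the threshold, and it was called in 2 of 8 fits that left out 1 library. Cdkn1b, which encodes p27, was at 10.9 ± 2.39 CPM (SD, n = 5) in CTRL and 10.9 ± 2.59 CPM (SD, n = 3) in OPA1_LKO.

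Cdk4, the kinase partner of the D-type cyclins, had the highest mean TPM of the G1 members. It was at 35.9, 33.4, 35.8, 33.7 and 35.2 CPM in the CTRL libraries, and 50.4, 40.0 and 37.9 CPM were measured in OPA1_LKO, without overlap. Its log2 fold change was 0.30 ± 0.12 (SE, edgeR Benjamini-Hochberg adjusted p = 0.181). E2f1, the E2F activator of S phase genes, had the lowest fold change of all members, -0.73 ± 0.35 (SE, log2 scale, edgeR adjusted p = 0.235). It was at 3.32 ± 1.27 CPM (SD, n = 5) in CTRL and 1.99 ± 0.342 CPM (SD, n = 3) in OPA1_LKO, with overlap. The log2 fold changes of Ccne1 and Ccne2, the E-type cyclins, were 0.40 and 0.02, and those of Cdk2 and Cdk6 were -0.17 and -0.24, none past the threshold.

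**Figure D2:**
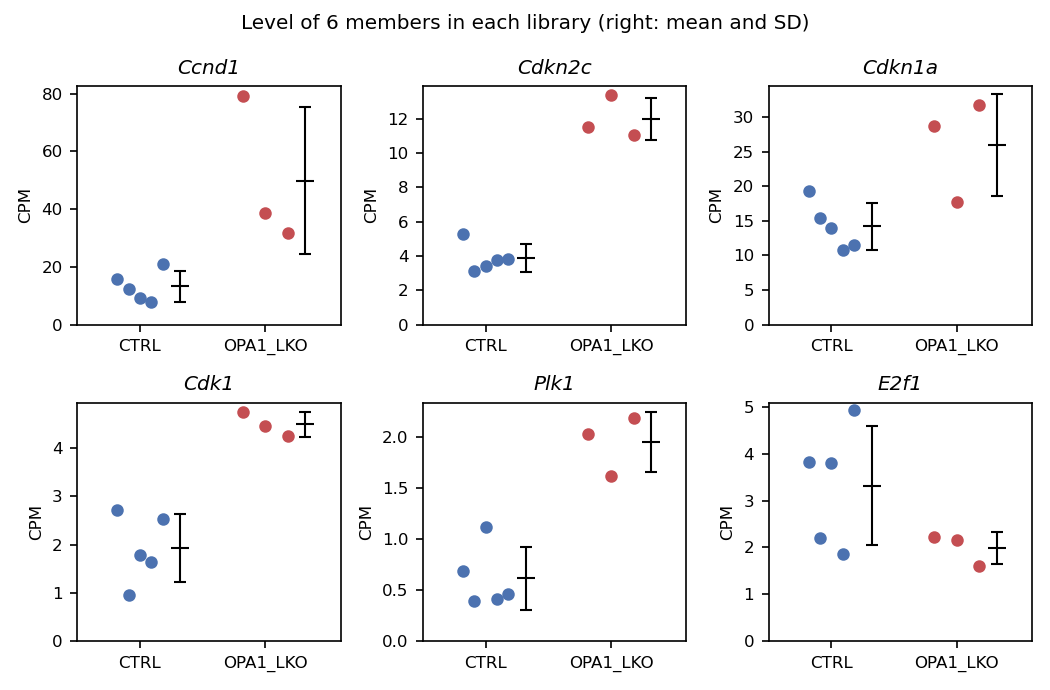
Level in CPM of Ccnd1, Cdkn2c, Cdkn1a, Cdk1, Plk1 and E2f1 in the 5 CTRL (blue) and 3 OPA1_LKO (red) libraries, each axis starting at 0, with the mean and SD to the right of each group. The groups are apart for Ccnd1, Cdkn2c, Cdk1 and Plk1 and overlap for Cdkn1a and E2f1.

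Of the 11 S phase members, edgeR called 0 higher and 0 lower. At an unadjusted p under 0.05, 1 was higher and 0 lower, and DESeq2 called 1 higher, in each case Mcm7. Their median log2 fold change was 0.21, with a range from -0.17 to 0.58. Their summed level overlapped between the groups, at 97.0 ± 12.6 CPM (SD, n = 5) in CTRL and 104.6 ± 11.3 CPM (SD, n = 3) in OPA1_LKO. Mcm7, a subunit of the replicative helicase, was at 10.5, 11.5, 9.34, 8.57 and 9.05 CPM in the CTRL libraries, and 16.1, 12.1 and 15.6 CPM were measured in OPA1_LKO. These groups did not overlap, with a log2 fold change of 0.57 ± 0.15 (SE, edgeR Benjamini-Hochberg adjusted p = 0.0568). Mcm5, a further subunit, was at 2.50, 1.46, 1.12, 0.823 and 2.23 CPM in the CTRL libraries, and 3.65, 2.20 and 1.48 CPM were measured in OPA1_LKO, with overlap. The log2 fold changes of Mcm2, Mcm3, Mcm4 and Mcm6 lay between -0.04 and 0.48, none past the threshold.

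Pcna, the sliding clamp of DNA polymerase, and Tk1, the thymidine kinase of the salvage pathway, had the highest mean TPM of the S phase members. Pcna was at 25.2, 28.3, 22.3, 31.4 and 25.1 CPM in the CTRL libraries, and 27.2, 30.7 and 19.8 CPM were measured in OPA1_LKO. Tk1 was at 14.7, 43.8, 19.4, 35.9 and 20.4 CPM in the CTRL libraries, and 17.0, 28.7 and 26.0 CPM were measured in OPA1_LKO. For both genes the groups overlapped, and the log2 fold changes were -0.03 ± 0.17 (SE) for Pcna and -0.17 ± 0.35 (SE) for Tk1, both of which turned positive on the TPM scale. Rrm1 and Rrm2 encode the subunits of ribonucleotide reductase, which makes deoxynucleotides. Rrm1 was at 8.87, 8.03, 6.60, 7.0 and 7.56 CPM in the CTRL libraries, and 10.3, 10.2 and 7.81 CPM were measured in OPA1_LKO. Rrm2 was at 3.03, 1.40, 2.18, 1.78 and 1.32 CPM in the CTRL libraries, and 2.35, 3.06 and 2.49 CPM were measured in OPA1_LKO. Both overlapped between the groups, as did Tyms, the thymidylate synthase, at 7.62 ± 1.39 CPM (SD, n = 5) and 8.30 ± 1.49 CPM (SD, n = 3).

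The G2 and mitosis members were low in all libraries and higher in OPA1_LKO by their summed level, at 20.2 ± 7.59 CPM (SD, n = 5) in CTRL and 44.7 ± 11.2 CPM (SD, n = 3) in OPA1_LKO. The sums were 28.6, 12.8, 21.4, 12.0 and 26.1 CPM in CTRL and 49.1, 31.9 and 53.03 CPM in OPA1_LKO, without overlap. Of the 18 tested, 2 rose (11.1%), against 3.34% of all genes tested, and the median log2 fold change was 1.28. A positive fold change was found for 17, against 46.9% of all genes tested. Of the 18, Ccnb1, Plk1, Bub1, Cenpe, Kif11 and Prc1 passed the filter through their counts in OPA1_LKO. Among the other 12, 1 rose (Cdk1), 11 had a positive fold change, and the median was 1.10. Aurka, the spindle pole kinase, was the exception at -0.34 ± 0.30 (SE, edgeR Benjamini-Hochberg adjusted p = 0.531). CTRL replicates 2 and 4 were the lowest CTRL library for 6 and 8 of the 19 members, and OPA1_LKO replicate 2 was the lowest OPA1_LKO library for 14.

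Cdk1 (chr10:69335146-69352912), the kinase that starts mitosis, was at 2.71, 0.955, 1.79, 1.65 and 2.52 CPM in the CTRL libraries, and 4.76, 4.45 and 4.26 CPM were measured in OPA1_LKO. The groups did not overlap, and the OPA1_LKO libraries lay closer together than the CTRL libraries. The log2 fold change was 1.22 ± 0.31 (SE, edgeR Benjamini-Hochberg adjusted p = 0.0487), and the call held in 1 of 8 fits that left out 1 library, the one without CTRL replicate 1. The call was also lost without the filter on low counts (edgeR adjusted p = 0.0651) and with a replicate block (edgeR adjusted p = 0.103). The 250 bases before its start site are shown because they hold all of the motifs searched. Capitals mark the CHR letters, CCAAT (as ATTGG on the opposite strand) and the E2F letters TTTCGCGC.
Cdk1, chr10:69352913-69353162, minus strand: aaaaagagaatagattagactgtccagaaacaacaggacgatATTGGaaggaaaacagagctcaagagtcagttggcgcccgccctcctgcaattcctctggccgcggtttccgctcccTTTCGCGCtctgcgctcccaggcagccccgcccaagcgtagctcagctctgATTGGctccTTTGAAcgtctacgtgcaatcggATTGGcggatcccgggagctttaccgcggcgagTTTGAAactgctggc

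Plk1 (chr7:122159435-122169884), a kinase of mitotic entry and spindle assembly, was at 0.690, 0.393, 1.12, 0.412 and 0.458 CPM in the CTRL libraries, and 2.03, 1.62 and 2.19 CPM were measured in OPA1_LKO. These levels rest on 6 to 20 counts in each CTRL library and 36 to 44 in each OPA1_LKO library, without overlap. The log2 fold change was 1.64 ± 0.39 (SE, edgeR Benjamini-Hochberg adjusted p = 0.0386), and the call held in 2 of 8 fits that left out 1 library, those without CTRL replicate 1 or 3. The largest edgeR adjusted p of these fits was 0.159, without OPA1_LKO replicate 1. As 2 CTRL libraries were over the count minimum, Plk1 entered the test through OPA1_LKO, and its call was lost without the filter (edgeR adjusted p = 0.0637) and with a replicate block (edgeR adjusted p = 0.133).

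Tpx2, which nucleates spindle microtubules, was at 1.01, 0.730, 0.615, 0.206 and 0.802 CPM in the CTRL libraries, and 2.08, 1.44 and 1.89 CPM were measured in OPA1_LKO. Cdc20, the activator of the anaphase promoting complex, was at 1.59, 0.225, 1.12, 0.755 and 1.20 CPM in the CTRL libraries, and 3.46, 1.75 and 3.73 CPM were measured in OPA1_LKO. Neither gene overlapped between the groups, and neither passed the threshold (log2 fold change 1.40 ± 0.42, SE, edgeR adjusted p = 0.0787 for Tpx2, and 1.59 ± 0.49, SE, edgeR adjusted p = 0.0869 for Cdc20). Ube2c, the ubiquitin carrier of that complex, had the highest mean TPM of the G2 and mitosis members. It was at 2.12, 1.07, 2.40, 0.549 and 2.12 CPM in the CTRL libraries, and 5.82, 2.25 and 4.62 CPM were measured in OPA1_LKO, where OPA1_LKO replicate 2 lay below CTRL replicate 3. Birc5, which encodes survivin of the chromosomal passenger complex, was at 2.02, 1.63, 1.73, 1.10 and 2.41 CPM in the CTRL libraries, and 3.14, 2.74 and 4.62 CPM were measured in OPA1_LKO, without overlap. Their log2 fold changes were 1.34 ± 0.45 (SE, edgeR adjusted p = 0.112) for Ube2c and 0.97 ± 0.30 (SE, edgeR adjusted p = 0.0888) for Birc5.

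The other 12 tested G2 and mitosis members had log2 fold changes from -0.34 (Aurka) to 1.62 (Ccnb1), none past the threshold. Mki67, which encodes the proliferation antigen Ki-67, was at 2.90 ± 1.42 CPM (SD, n = 5) in CTRL and 6.70 ± 2.68 CPM (SD, n = 3) in OPA1_LKO, with overlap. Ccnb1, the main partner of Cdk1, rested on 1 to 20 counts in CTRL and 19 to 44 in OPA1_LKO, also with overlap. Prc1, which bundles microtubules of the central spindle, and Bub1b, of the spindle checkpoint, did not overlap between the groups, with log2 fold changes of 1.42 and 0.93. Ccna2, Ccnb2, Bub1, Cenpe, Foxm1, Top2a and Kif11 overlapped, with log2 fold changes between 0.37 (Kif11) and 1.49 (Bub1). Aurkb, the kinase of the chromosomal passenger complex, was removed by the filter on low counts, with 7, 4, 7, 3 and 3 counts in CTRL and 9, 18 and 15 in OPA1_LKO.

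**Figure D3:**
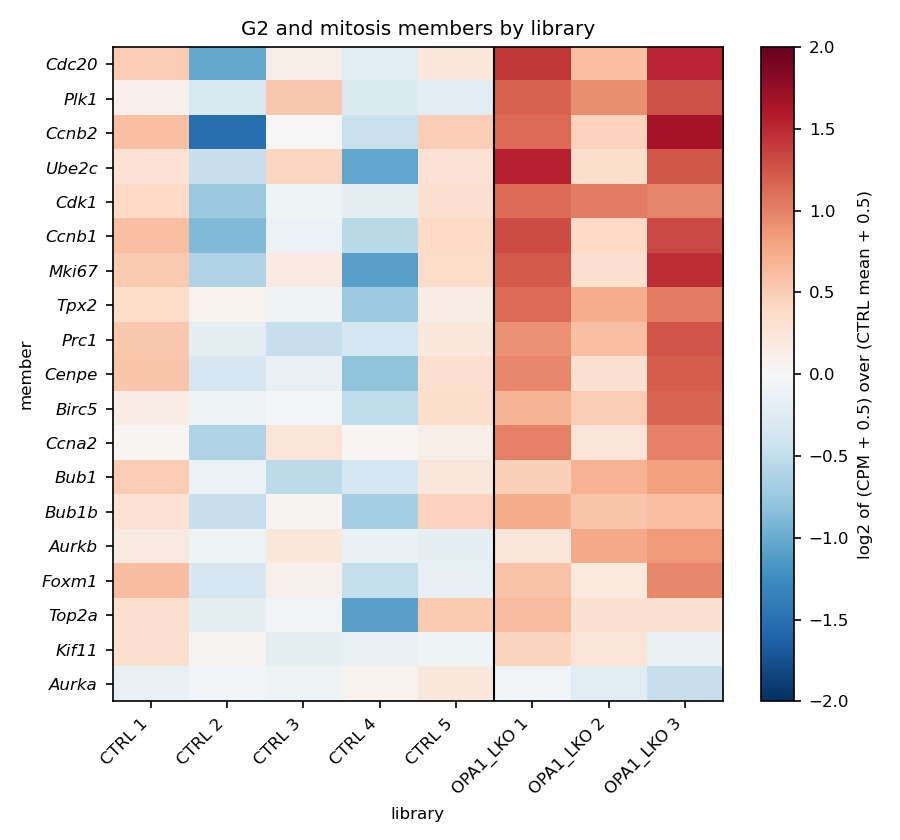
The 19 G2 and mitosis members (rows) in the 8 libraries (columns), coloured by the log2 ratio of CPM to the CTRL mean after 0.5 CPM was added to each. OPA1_LKO replicates 1 and 3 are above the CTRL mean for most rows, OPA1_LKO replicate 2 by less, and Aurka is the row that is lower.

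Other cell cycle genes were read from 4 lists of genes that are not members, of which 121 of 138 were tested. Of these, 3 rose (2.48%) and 0 fell, against 3.34% called higher and 2.69% lower over all genes tested. The median log2 fold change of the 121 was 0.11. At an unadjusted edgeR p under 0.05, 25 of the 121 were higher and 10 lower, against 3337 of all 14036 genes in either direction. DESeq2 called 6 of the 121 higher and 3 lower, against 841 and 851 of all genes. In the list for G2 and mitosis, 2 of 38 tested genes rose (5.26%), 31 had a positive fold change, and the median log2 fold change was 0.69. These were Pkmyt1, the membrane kinase that inhibits Cdk1, with a log2 fold change of 1.65 ± 0.40 (SE, edgeR Benjamini-Hochberg adjusted p = 0.0397), and Anln, the anillin of the cleavage furrow, with 1.64 ± 0.37 (SE, edgeR adjusted p = 0.0309). Each call was lost in some fits that left out 1 library, Pkmyt1 being called in 3 and Anln in 4 of 8.

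In the list for DNA replication, 0 of 38 tested genes were called by edgeR and the median log2 fold change was -0.01. Of these, 2 were higher and 6 lower at an unadjusted p under 0.05. Rfc3, of the clamp loader, had the smallest p, with a log2 fold change of -0.53 ± 0.16 (SE, edgeR Benjamini-Hochberg adjusted p = 0.0839). In the list for G1, 0 of 23 were called by edgeR, with a median of -0.05, and 1 was higher and 1 lower at an unadjusted p under 0.05. E2f8, a repressor E2F, was at 4.45 ± 0.954 CPM (SD, n = 5) in CTRL and 2.30 ± 0.608 CPM (SD, n = 3) in OPA1_LKO (log2 fold change -0.95 ± 0.27, SE, edgeR adjusted p = 0.0675). Myc, a growth-inducing transcription factor, was at 12.9 CPM in CTRL replicate 1, 2.30 to 5.83 CPM in the other CTRL libraries and 10.7 to 24.6 CPM in OPA1_LKO (edgeR adjusted p = 0.0688).

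Of the 23 tested p53 targets and genes of growth arrest, 1 rose (4.35%), close to the 3.34% called higher over all genes tested. The median log2 fold change of the 23 was 0.15. At an unadjusted edgeR p under 0.05, 5 were higher and 1 lower, against 3337 of all 14036 genes in either direction. Gadd45g, a stress-induced gene of growth arrest, was at 15.4, 8.43, 13.0, 19.9 and 16.3 CPM in the CTRL libraries, and 69.1, 37.4 and 169 CPM were measured in OPA1_LKO. The groups did not overlap, with a log2 fold change of 2.65 ± 0.42 (SE, edgeR Benjamini-Hochberg adjusted p = 0.00795) and a call in all 8 fits that left out 1 library.

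Markers of other cell types also differed between these libraries. Summed bile duct markers were at 17.5 to 72.6 CPM in CTRL and 141 to 205 CPM in OPA1_LKO, and 3 of 7 (Krt7, Sox9 and Spp1) rose. Spp1 alone made up most of the OPA1_LKO sums, at 122 to 176 CPM there and 13.9 to 33.1 CPM in CTRL. The 4 other markers were not called, and 2 of the 7 had a negative fold change. CTRL replicate 3 had the highest Krt19 and Epcam of all libraries. Summed B cell markers were at 14.1, 8.20, 12.2, 7.0 and 6.93 CPM in the CTRL libraries, and 16.1, 9.31 and 21.7 CPM were measured in OPA1_LKO, with 0 of 5 called by edgeR and 1 higher at an unadjusted p under 0.05. OPA1_LKO replicate 2 was the lowest of its group in both the B cell sum and the sum of G2 and mitosis members. CTRL replicate 5 had the lowest B cell sum of its group and a G2 and mitosis sum of 26.1 CPM, above 3 other CTRL libraries. Summed T cell markers were at 3.43 to 10.6 CPM in CTRL and 8.08 to 9.65 CPM in OPA1_LKO, with 0 of 7 called by edgeR and 0 at an unadjusted p under 0.05. Stellate cell and fibroblast markers summed to 171 to 245 CPM in CTRL and 230 to 513 CPM in OPA1_LKO, with 0 of 7 called by edgeR and 3 higher at an unadjusted p under 0.05. Summed macrophage markers were at 869 CPM in CTRL replicate 1, 175 to 373 CPM in the other CTRL libraries and 169 to 241 CPM in OPA1_LKO. Of these 9 genes, 8 had a negative fold change, with 0 called by edgeR and 1 lower at an unadjusted p under 0.05. Summed erythroid precursor markers were at 3.49 to 5.81 CPM in CTRL and 3.28 to 5.09 CPM in OPA1_LKO. Of the 6 genes found, 2 were tested, with 0 called, and Gata1 and Rhag were at 0 in every library. The part of these cell types in the levels of the cell cycle genes was not tested.

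**Figure D4:**
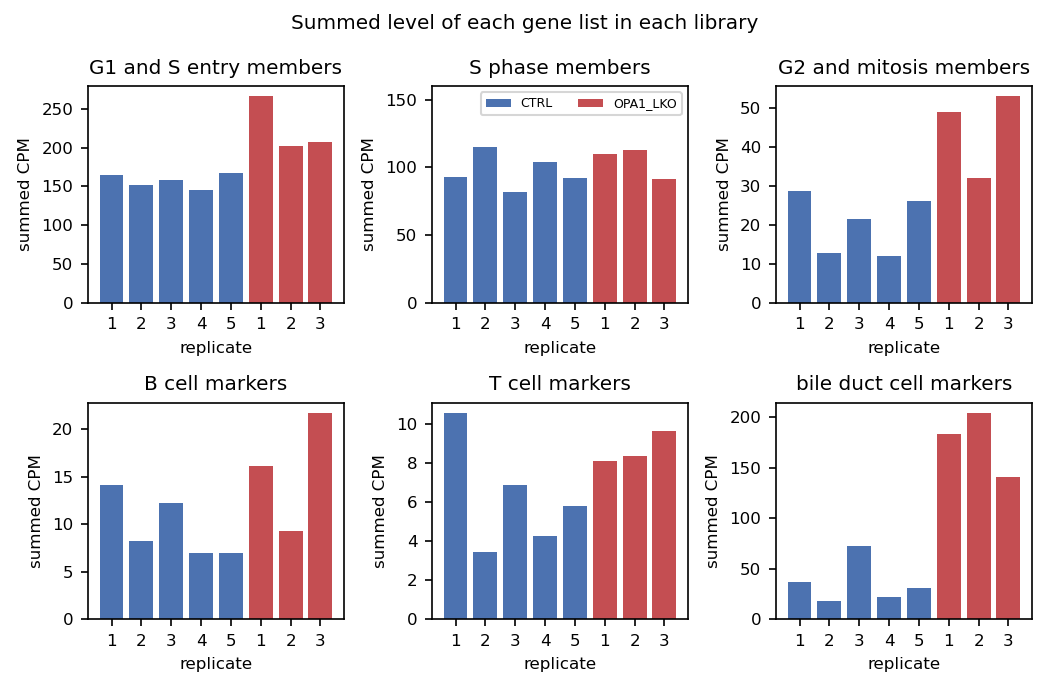
Summed CPM of the G1, S phase and G2 and mitosis members (top) and of B cell, T cell and bile duct markers (bottom) in each CTRL (blue) and OPA1_LKO (red) library. The G1, G2 and mitosis, and bile duct sums do not overlap between the groups, while the S phase, B cell and T cell sums do. Spp1 alone makes up most of the bile duct sum in OPA1_LKO.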

How the data were processed

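Total RNA of liver was made into stranded mRNA libraries, per the labels' protocols. Tools named in the submitters' processing notes are RSEM, STAR, MultiQC and StringTie (no versions), with the build mm10. The expected counts deposited by the authors are RSEM estimates for each gene and are not normalised. The TPM values deposited by the authors are corrected for transcript length. RSEM divides reads that match several places, and the strand setting of the counting is not given in the sources used here.

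Expected counts were rounded to whole numbers. Genes with low counts were removed by filterByExpr (count minimum 10, total 15), and TMM factors were computed. The groups were compared with edgeR 4.0.16 (R 4.3.3), using its quasi-likelihood test. P-values were adjusted by Benjamini-Hochberg over 14036 genes and called at an adjusted p under 0.05. Each SE follows from a gene's fold change and its F statistic. The procedure was tested on simulated data. Depth was 16076404 to 20471271 counts, and low members rest on few counts. Coordinates are from a RefSeq gene table of GRCm38.p6.

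Alternatives were DESeq2 1.42.0, upper-quartile factors, no filter, limma 3.58.1 on log2(TPM + 1) and log2(TPM + 0.1), a replicate block, leaving out each library, and leaving out CTRL replicates 1 and 3 together. The members and lists were chosen with earlier results of these data known. All members are accounted for, and values in every library are given for called members and, in each phase group, for the 4 with the smallest p and the 2 with the highest mean TPM. In the other lists, called genes are named, or else the 2 with the smallest p. A gene that this rule names is not reported here. Apoe, Xist, Ddx3y, Krt19, Epcam, Krt7, Sox9, Spp1, Gata1 and Rhag, and the other members given values, were chosen after their values were seen.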

Additional observations from a re-analysis of the deposited data

Results flagged for a closer look

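Each value below lay far from the other CTRL libraries by a gap test on groups of 5. Of 60 groups of CTRL libraries examined, 4 had such a library, a share close to the 1 in 20 that chance gives for independent groups. These groups share the same 5 libraries, so the share does not tell whether chance gave the 4. Apoe and Xist were examined because their values had already been seen. In all 4 it was CTRL replicate 1. The apolipoprotein gene Apoe had 133.83 CPM there and 25200 to 33179 CPM in the other CTRL libraries. Xist, the RNA that silences an X chromosome, was at 8.1254 CPM there and at 0 to 0.112 CPM in the others. Summed macrophage markers were at 868.57 CPM there and at 175 to 373 CPM in the others. Summed neutrophil markers were at 14.658 CPM there and at 2.75 to 4.75 CPM in the others. This library was also the highest CTRL library for 11 of the 19 G2 and mitosis members. The label and purity of this library could not be checked from the sources used here. Without it, 9 members were called higher in place of 4, and over all genes tested 924 in place of 469. Krt19 is not among the 4 groups, though it was at 22.3 CPM in CTRL replicate 3 and 0.319 to 1.03 CPM in the other CTRL libraries.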

How the results depend on the processing

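Members called higher numbered 4 in the edgeR test, and 0 were called lower under every alternative run. Higher calls numbered 11 by DESeq2, 2 without the filter on low counts, 2 with a replicate block, 13 without CTRL replicates 1 and 3 (chosen after seeing the data), and 1 to 9 when each library was left out. G1 members numbered 2, then 4 by DESeq2, 4 without CTRL replicates 1 and 3, and 1 to 3 when each library was left out. S phase members numbered 0, then 1 by DESeq2, 1 with upper-quartile factors, 1 without CTRL replicates 1 and 3, and 0 to 1 when each library was left out. G2 and mitosis members numbered 2, then 6 by DESeq2, 0 without the filter, 4 on log2(TPM + 1), 0 with the replicate block, 8 without CTRL replicates 1 and 3, and 0 to 5 when each library was left out. Other cell cycle genes called higher numbered 3, then 6 by DESeq2, 1 without the filter, 5 on log2(TPM + 1), 5 on log2(TPM + 0.1), 12 without CTRL replicates 1 and 3, and 1 to 7 when each library was left out. Those called lower numbered 0, then 3 by DESeq2, 7 without CTRL replicates 1 and 3, and 0 to 3 when each library was left out. The cause of these changes was not tested.

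Over all genes tested, 469 were higher, then 841 by DESeq2, 193 with the replicate block, 1491 without CTRL replicates 1 and 3, and 144 to 924 when each library was left out. The 377 lower genes became 851 by DESeq2, 238 without the filter, 107 on log2(TPM + 1), 113 on log2(TPM + 0.1), 174 with the replicate block, 1428 without CTRL replicates 1 and 3, and 54 to 777 when each library was left out. The TPM scale moved the median log2 fold change of all genes from -0.03 to 0.09 with a pseudocount of 1 and to 0.14 with 0.1. The medians of G1 and S phase members were 0.41 and 0.40 on log2(TPM + 0.1), and that of G2 and mitosis members was 0.44 on log2(TPM + 1). The S phase median ranged from 0.026 to 0.45 when each library was left out. The count of G2 and mitosis members whose groups did not overlap was 8 with the untested Aurkb. Of the 18 tested it was 7 (38.9%), against 8.0% of all genes tested. Plk1 and Prc1 are among the 7 and passed the filter through their counts in OPA1_LKO, so this share describes only what the filter let through. When each library was left out the count was 8 to 14, with 14 without OPA1_LKO replicate 2. Fewer libraries separate more readily, and no share over all genes is given for these fits. In all alternatives run, 17 of 18 G2 and mitosis members had a positive fold change, against 46.9% of all genes tested in the edgeR test. These alternatives reuse the same libraries, and 6 of the 18 passed the filter through their counts in OPA1_LKO.

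Fold changes near 0 changed sign, none of them called. With the replicate block, log2 fold changes were -0.12 for Ccne2, -0.022 for Mcm2, 0.060 for Mcm4, 0.024 for Pcna and 5.96e-05 for Tk1. Without CTRL replicates 1 and 3 they were -0.041 for Ccne2 and 0.070 for Cdkn1b. For Cdkn1b they were 0.0022 by DESeq2 and 0.0086 without the filter. With upper-quartile factors they were 0.079 for Cdkn1b, 0.043 for Mcm4 and 0.061 for Pcna. On log2(TPM + 1) they were 0.14 for Cdkn1b, 0.059 for Mcm4, 0.12 for Pcna and 0.078 for Tk1, and on log2(TPM + 0.1) they were 0.16, 0.097, 0.12 and 0.084. When each library was left out, they ranged from -0.63 to 0.33 for Ccne2, -0.15 to 0.16 for Cdkn1b, -0.25 to 0.38 for Mcm2, -0.23 to 0.22 for Mcm4, -0.17 to 0.16 for Pcna, -0.32 to 0.082 for Tk1, -0.031 to 0.67 for Ccne1, -0.0038 to 0.47 for Mcm3 and -0.035 to 0.22 for Tyms.

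Replicate numbers were not taken as pairs: deviations of same-numbered libraries correlated at 0.07, 0.05 and 0.18, and nothing in the labels links them. Few counts limit the G2 and mitosis members, and 3 OPA1_LKO libraries limit every comparison.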
